A study of Caenorhabditis elegans with 10 samples.

Results

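The cytochrome P450 enzymes of Caenorhabditis elegans were represented by 73 genes of the 17118 genes that had a probe set with 1 gene symbol. They were taken by name, as each gene whose symbol is cyp, a family number, a subfamily letter and a gene number, and fell into 25 subfamilies. A gene with more than 1 probe set, as 5 of the 73 had, was given by the probe set with the highest mean over the 10 arrays. All 73 matched the RefSeq gene table of assembly WBcel235, where 3 of them (cyp-29A1, cyp-31A1 and cyp-34A3) are annotated as pseudogenes. Daf-9, the P450 that makes the steroid hormone dafachronic acid, does not carry such a name and is given apart.

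Cytochromes P450 are heme enzymes that use NADPH and oxygen to insert an oxygen atom into their substrate. Most sit in the membrane of the endoplasmic reticulum and take their electrons from a single reductase, encoded in the worm by emb-8. In C. elegans many of them, above all of the 14A, 34A and 35 families, are known from the intestine and from their induction by foreign compounds, and others make signalling lipids, hormone precursors or lipids of the eggshell.

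Whole worms, predominantly young adults, were measured on 10 Affymetrix arrays, and each array held RNA combined from 3 biological replicates, so no strain or feeding had a replicate array. The missense mutants were gas-1 (fc21) in complex I of the respiratory chain, mev-1(kn1) in complex II and isp-1(qm150) in complex III, and like their N2 (Bristol) wild type they were kept on OP50 plates and then in K12 liquid culture. The label of the isp-1 array cites the sequence name of mev-1, so values for isp-1 rest on the gene name and allele in that label. The other arrays were 5 cultures of N2 fed RNAi bacteria against the complex I genes nduf-6 (F22D6.4), nuo-5 (Y45G12B.1), ndua-13 (C34B2.8), ndab-1 (Y56A3A.19) and also ndub-7 (D2030.4) over 2 plate generations, followed by liquid culture with 5 mM IPTG, and an N2 wild type kept on HT115 bacteria. No empty vector and no IPTG are named in the label of that wild type, so feeding vector, IPTG and target cannot be told apart. The 2 wild types are therefore called K12 and HT115, each mutant is compared with the wild type of its own culture, and comparisons in a culture share that single wild-type array.

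The deposited log2 values had array medians between 5.88 and 6.01. The targeted mRNA stood at 51.9% of the HT115 wild type for nuo-5, 70.5% for ndua-13, 83.9% for nduf-6 and 88.5% for ndub-7, each in the array labelled with it, whereas ndab-1 stood at 211% in the array labelled ndab-1 RNAi, against its label, so the RNAi arrays are named by their labels throughout. Markers of stage differed between arrays, the 2 wild types included. In the K12 wild type 30 of 31 sperm genes were higher (median 0.59, log2) and 18 of 22 oocyte and eggshell genes lower (-0.10) than in the HT115 wild type. In the array labelled ndub-7 RNAi, 31 of 31 sperm genes, 20 of 20 moulting genes and 11 of 17 intestine genes were higher than in the HT115 wild type (medians 1.74, 1.31 and 0.60, log2) and 22 of 22 oocyte and eggshell genes were lower (median -0.81). With nduf-6 RNAi, 28 of 31 sperm genes (median -2.59) and 16 of 20 moulting genes (-0.38) were lower and 21 of 22 oocyte and eggshell genes higher (0.29). With ndab-1 RNAi, 30 of 31 sperm genes (0.67) and 15 of 20 moulting genes (0.54) were higher and 20 of 22 oocyte and eggshell genes lower (-0.25). Sperm genes were also higher with nuo-5 RNAi (30 of 31, 0.33) and ndua-13 RNAi (27 of 31, 0.15). The missense mutants differed from the K12 wild type as well, by smaller medians for these lists than ndub-7 RNAi. In gas-1, 17 of 20 moulting genes (median -0.59) and 19 of 22 oocyte and eggshell genes (-0.13) were lower. In mev-1, 30 of 31 sperm genes (0.54) and 16 of 17 intestine genes (0.34) were higher. In isp-1, 28 of 31 sperm genes were lower (-0.35). In whole worms, fewer cells of a type and less RNA per cell cannot be told apart. Of the 17 intestine markers measured, 16 passed the level filter explained below, and the range of the median level of the list was 10.5 to 11.2 in the missense mutants and 10.3 to 11.2 in the RNAi arrays, against 10.7 in the K12 and 10.2 in the HT115 wild type.

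For 16 of the 73 genes the values hardly moved. A level filter at the 25th percentile of all probe sets, 2.60 on the log2 scale, was passed by 51 of the 73 P450 genes, with cyp-33C5 (mean 2.61) just inside and cyp-33E3 (mean 2.60) just outside it. Those 16 stayed under 2.60 in all 10 arrays and spanned at most 0.19, so no change could be read for them. They were cyp-13A4, cyp-13A7, cyp-29A1, cyp-33C6, cyp-33C11, cyp-33C12, cyp-33D1, cyp-33D3, cyp-34A1, cyp-34A3, cyp-34A7, cyp-35A1, cyp-35A3, cyp-35A4, cyp-35A5 and cyp-35B3. Another 6 genes had a mean under the filter but stood clearly above it in 1 to 2 arrays (cyp-13A8, cyp-13B2, cyp-14A3, cyp-14A4, cyp-33B1 and cyp-33E3). No member of the 33B and 33D subfamilies and 1 of the 5 members of 35A, cyp-35A2, passed, whereas all members of 25A (3 genes) and 31A (4 genes) did. The family lies mostly on chromosome V, with 42 of the 73 genes, and 34 genes had another member as their direct neighbour, the longest run being the 6 genes cyp-34A5 to cyp-34A10. A probe set marked as shared with or similar to other transcripts (suffix _s_at or _x_at) stood for 10 of the 73 genes: cyp-13B1, cyp-14A5, cyp-31A1, cyp-31A2, cyp-32A1, cyp-32B1, cyp-33C4, cyp-33C5, cyp-35C1 and cyp-37A1. For these, signal from a close relative cannot be separated.

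**Figure D1:**
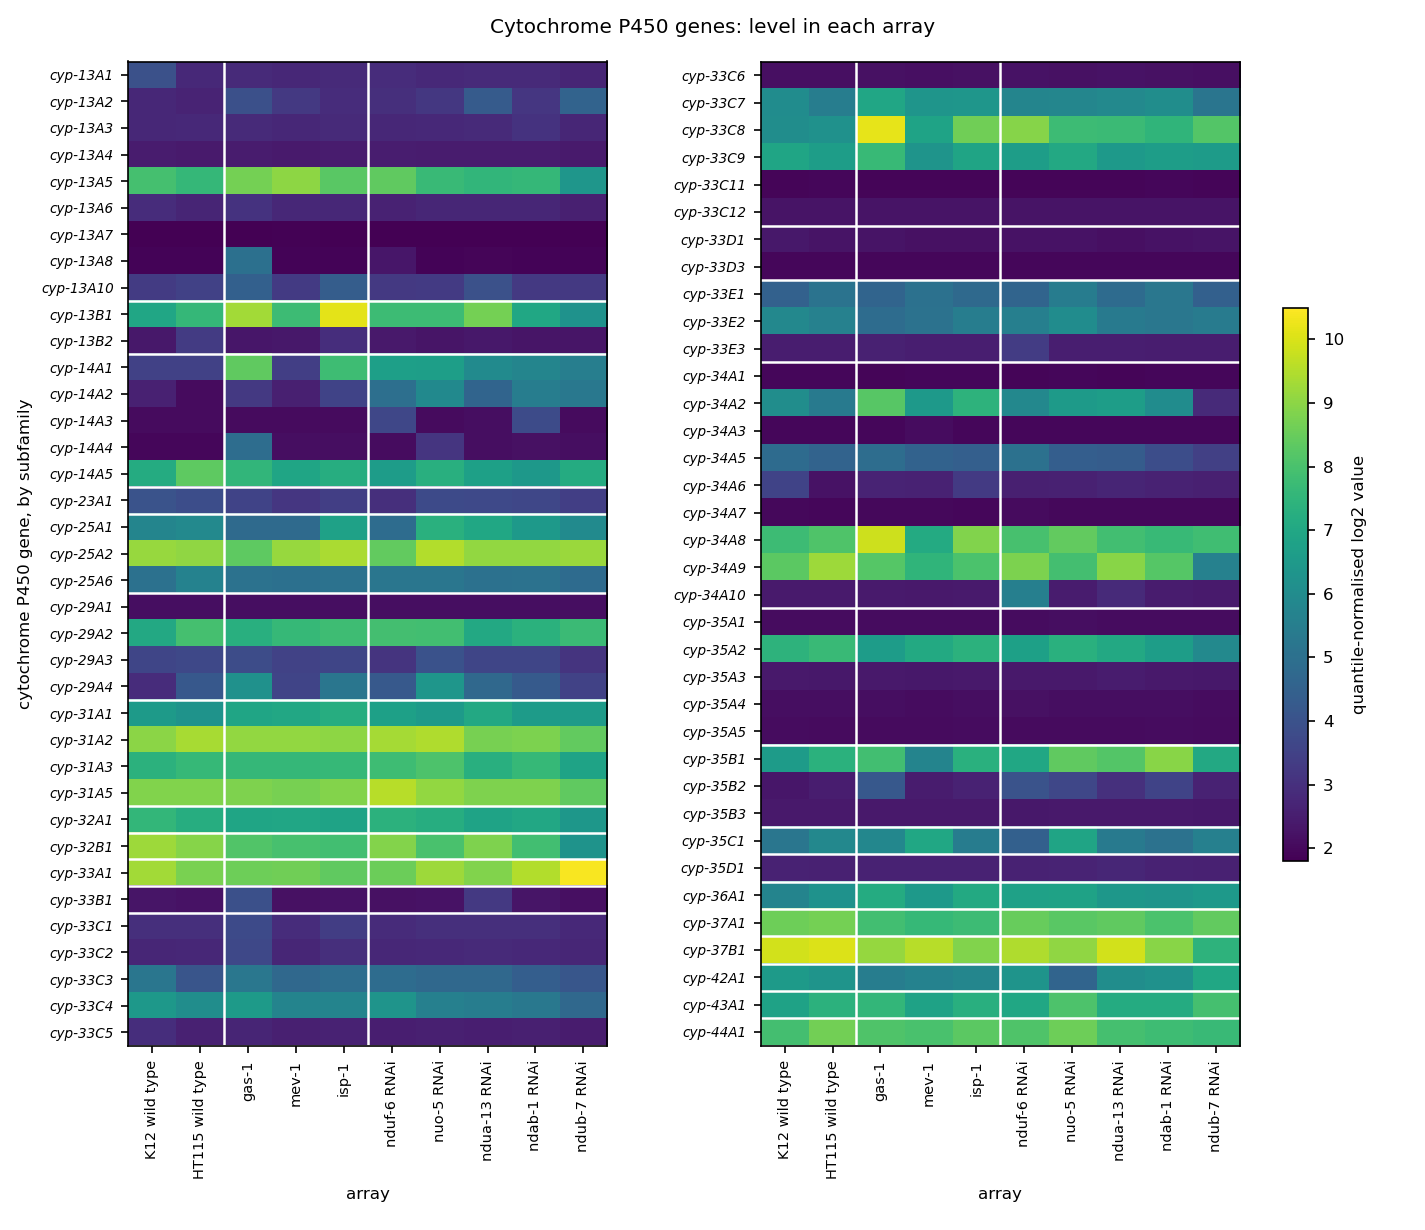
Level of the 73 cytochrome P450 genes (rows, grouped by subfamily between white lines) in the 10 arrays (columns: the wild types, the missense mutants and the RNAi feedings), as colour on the quantile-normalised log2 scale. Dark rows are the genes near or under the filter of 2.60, and cyp-14A1 and cyp-33C8 change from dark or mid colours in both wild types to bright ones in gas-1.

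Counted array by array, P450 genes at least 2-fold above their wild type were most numerous in gas-1, isp-1 and nuo-5 RNAi. No test was possible for single arrays, so the shares are set beside those of all 17118 genes, counted without a level filter. In gas-1, 14 of 73 P450 genes (19.2%) were at least 2-fold higher, against 2.82% of all genes. In isp-1 it was 9 genes (12.3%, against 1.82%), and in mev-1 2 genes (2.74%, against 3.41%), which is about the share of all genes. Among the RNAi arrays it was 10 genes in nuo-5 RNAi (13.7%, against 3.01%), 8 in ndua-13 RNAi (10.96%, against 3.93%), 6 in nduf-6 RNAi (8.22%, against 2.18%), 6 in ndab-1 RNAi (8.22%, against 4.28%) and 5 in ndub-7 RNAi (6.85%, against 8.87%). The median P450 gene was close to its wild type in each array, between -0.04 and 0.04 on the log2 scale, as was the median of all genes (between -0.01 and 0.01). Such a median does not tell how many members moved, since higher and lower members cancel and 16 genes never reached the filter.

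P450 genes at least 2-fold lower outnumbered the higher ones in ndub-7 RNAi, equalled them in mev-1 and ndab-1 RNAi, and were fewer in the other 5 mutant arrays. In ndub-7 RNAi 11 of 73 P450 genes (15.1%) were at least 2-fold lower, against 7.79% of all genes. The other arrays held 6 such genes in ndab-1 RNAi (8.22%, against 3.17%), 5 in nuo-5 RNAi (6.85%, against 2.58%), 3 in nduf-6 RNAi (4.11%, against 3.09%), 1 in ndua-13 RNAi (1.37%, against 3.71%), 3 in gas-1 (4.11%, against 2.11%), 3 in isp-1 (4.11%, against 1.68%) and 2 in mev-1 (2.74%, against 2.33%). In values as deposited the count was 3 in nuo-5 RNAi and 5 in gas-1. Of the genes lower in nuo-5 RNAi, cyp-42A1 had a second probe set with a log2 ratio of 0.03 there. Cyp-13B2, cyp-14A5 and cyp-34A9, also among them, were at least 2-fold lower in ndab-1 and ndub-7 RNAi too. For these genes the K12 minus HT115 wild type difference was -0.94, -1.20 and -0.93, so the counts in those arrays rest in part on the HT115 wild type. The K12 wild type itself was at least 2-fold above the HT115 wild type for 3 P450 genes (4.11%, against 3.07% of all genes) and at least 2-fold below it for 2 (2.74%, against 2.38%).

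**Figure D2:**
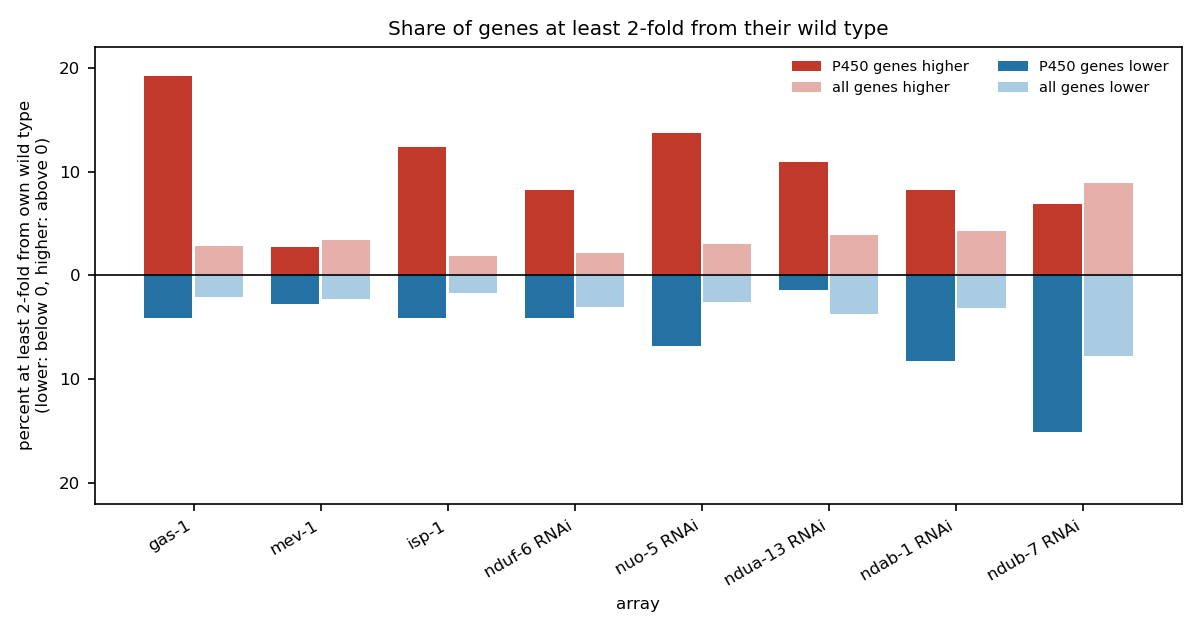
Percent of genes at least 2-fold higher (bars above 0) or lower (bars below 0) than the wild type of the same culture in each of the 8 mutant arrays, for the 73 P450 genes (dark) and all 17118 genes (pale). The dark bar above 0 reaches 19.2% in gas-1 against a pale bar of 2.82%, and in mev-1 the bars are 2.74% and 3.41%.

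The 14A subfamily, whose members are known for induction by foreign compounds, held the highest ratios of the family. Cyp-14A1 had nearly the same level in both wild types, 3.49 in K12 and 3.48 in HT115. It stood at 8.37 (gas-1), 3.42 (mev-1) and 7.79 (isp-1). Under RNAi it stood at 6.70 (nduf-6), 6.67 (nuo-5) and 5.97 (ndua-13), then 5.77 (ndab-1) and 5.52 (ndub-7). All arrays but mev-1 thus lay far above both wild types, by 29.3-fold in gas-1, 19.7-fold in isp-1 and 4.11-fold to 9.31-fold in the RNAi arrays, while mev-1 lay at the wild-type level. In the limma fits cyp-14A1 had a difference of 3.03 (SE 1.62, adjusted p = 1.00) in the missense mutants, where mev-1 lay far below the others (SD 2.71, n = 3), and 2.64 (SE 1.54, adjusted p = 0.744) in the RNAi arrays, which share that spread, and it did not pass.

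Cyp-14A2, the next gene on chromosome X, was high in the RNAi arrays and near the filter elsewhere. It stood at 2.61 in the K12 and 2.07 in the HT115 wild type, and at 3.24 (gas-1), 2.56 (mev-1) and 3.55 (isp-1). The RNAi arrays had it at 4.97 (nduf-6), 5.92 (nuo-5) and 4.62 (ndua-13), then 5.48 (ndab-1) and 5.28 (ndub-7). The RNAi values did not overlap those of the other 5 arrays. Cyp-14A2 rose in the RNAi animals by 3.18 (SE 0.49, log2, limma adjusted p = 0.0468), or 9.09-fold, higher in 5 of 5 arrays. Because the HT115 wild type lay under the filter, the size is uncertain, and the call was lost, at the same direction, in 11 of 15 other settings, among them leaving out gas-1, mev-1, isp-1, or nduf-6, nuo-5, ndab-1 or ndub-7 RNAi (adjusted p of 0.0533 to 0.113). The response of cyp-14A2 was larger in the RNAi than in the missense arrays by 2.67 (SE 0.71), which did not pass (limma adjusted p = 0.704).

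The other 14A genes had patterns of their own. Cyp-14A3, adjacent to cyp-14A2, stood at 3.65 in nduf-6 RNAi and 3.78 in ndab-1 RNAi and between 2.04 and 2.11 in the other 8 arrays. Cyp-14A4 stood at 4.91 in gas-1 and 3.15 in nuo-5 RNAi and between 1.95 and 2.20 in the other 8. Cyp-14A5, which lies on chromosome V and not on X, went the other way in the RNAi arrays: it stood at 8.34 in the HT115 wild type and at 6.61, 7.28, 6.75, 6.43 and 7.17 in the RNAi arrays, in the order given above. The K12 wild type stood at 7.15, inside the RNAi range, so the difference of -1.50 (SE 0.37, limma adjusted p = 0.247, lower in 5 of 5) rests on the HT115 wild type and did not pass.

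In the 33C subfamily cyp-33C8 was the member that stood out, and it was higher than its wild type in 8 of 8 mutant arrays. It stood at 6.07 in the K12 and 6.21 in the HT115 wild type. It stood at 10.2 (gas-1), 6.83 (mev-1) and 8.61 (isp-1). With RNAi it stood at 8.91 (nduf-6), 7.76 (nuo-5) and 7.74 (ndua-13), then 7.51 (ndab-1) and 8.18 (ndub-7). No mutant overlapped a wild type, mev-1 was the nearest to it at 1.69-fold, and gas-1 the farthest at 17.2-fold. Over the 8 mutants the difference was 2.12 (SE 0.70, limma adjusted p = 0.625) and did not pass, with single arrays as different as mev-1 and gas-1 in 1 group. Of its relatives, cyp-33C7 stood at 6.94 in gas-1 against 6.02 in the K12 wild type, and cyp-33C9 at 7.67 against 6.92. Cyp-33C1 and cyp-33C2 reached 3.77 and 3.70 in gas-1 and stood between 2.72 and 3.39 in the other 9 arrays. Other relatives did not follow in gas-1, with log2 ratios of 0.05 for cyp-33C3, 0.11 for cyp-33C4 and -0.25 for cyp-33C5. The median ratio of the 11 genes of 33C in gas-1 was 0.11.

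Single members of the 13A and 13B subfamilies stood high in gas-1, isp-1 or some RNAi arrays. Cyp-13B1 stood at 6.93 in the K12 and 7.59 in the HT115 wild type. It stood at 9.29 (gas-1), 7.75 (mev-1) and 10.2 (isp-1), and in the RNAi arrays at 7.75 (nduf-6), 7.76 (nuo-5) and 8.68 (ndua-13), then 6.97 (ndab-1) and 6.23 (ndub-7). The isp-1 value was 9.36-fold and the gas-1 value 5.13-fold above the K12 wild type, whereas the RNAi arrays lay on both sides of theirs. The other 13B gene, cyp-13B2, stood at 3.31 in the HT115 wild type and between 2.28 and 2.41 in the 5 RNAi arrays, all of them under the filter. The K12 wild type stood at 2.37, inside that range, and isp-1 at 2.94, so the RNAi difference rests on the HT115 wild type. A second probe set of cyp-13B1 gave like log2 ratios, 2.29 (gas-1), 0.46 (mev-1) and 3.02 (isp-1). The missense difference was 2.13 (SE 1.04, limma adjusted p = 1.00) and did not pass.

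Among the 13A genes, all on chromosome II and 5 of them (cyp-13A4 to cyp-13A8) direct neighbours, cyp-13A5 was higher than the K12 wild type (7.94) in 3 of 3 missense mutants, at 8.69 (gas-1), 9.02 (mev-1) and 8.27 (isp-1), and was 1 of the 2 P450 genes at least 2-fold higher in mev-1. In ndub-7 RNAi it stood at 6.38 against 7.58 in the HT115 wild type. Cyp-13A8 was read in gas-1 at 5.00 and stood between 1.87 and 2.33 in the other 9 arrays. Cyp-13A10 stood at 4.48 in gas-1, 4.37 in isp-1 and 3.97 in ndua-13 RNAi and between 3.23 and 3.48 in the other 7. Cyp-13A2 reached 4.58 in ndub-7 RNAi, 4.29 in ndua-13 RNAi and 3.92 in gas-1, against 2.78 in the K12 and 2.66 in the HT115 wild type.

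Cyp-13A1 was the single P450 gene called in the missense mutants, and it rests on the K12 wild type. It stood at 3.97 in the K12 wild type and between 2.70 and 2.89 in the other 9 arrays, the HT115 wild type (2.799) included. It fell by 1.15 (SE 0.11, limma adjusted p = 0.0189) in the missense mutants, lower in 3 of 3, with values near the filter level (SD 0.041). The call was lost in 7 of 15 other settings, among them leaving out isp-1 or nuo-5, ndua-13 or ndab-1 RNAi (adjusted p of 0.0503 to 0.0622).

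The 34A genes, which include a gene downstream of the insulin-pathway factor DAF-16 (cyp-34A9, also named dod-16), were spread widely. Cyp-34A2 stood at 6.05 in the K12 and 5.33 in the HT115 wild type. It stood at 8.24 (gas-1), 6.47 (mev-1) and 7.42 (isp-1), and in the RNAi arrays at 5.87 (nduf-6), 6.53 (nuo-5) and 6.64 (ndua-13), then 6.05 (ndab-1) and 2.83 (ndub-7). It was thus above its wild type in 7 of 8 mutants, by 4.55-fold in gas-1, and 5.69-fold below it in ndub-7 RNAi, where the sperm, moulting and oocyte markers also differed from the wild type as given above, and their part in this was not tested. Cyp-34A8 stood at 9.84 in gas-1 and 8.85 in isp-1 but 7.13 in mev-1, against 7.77 in the K12 wild type, and the RNAi arrays (7.67 to 8.41) lay around the HT115 wild type (8.10). Cyp-34A9, its neighbour, was lower than the wild type in 8 of 8 arrays, most in ndub-7 RNAi at 5.64 against 9.23, or 12.1-fold. The K12 wild type stood at 8.29, and the other RNAi arrays (7.91 to 8.97) lay on both sides of it, so their differences rest on the HT115 wild type. Cyp-34A10, the last gene of this run, stood at 5.56 in nduf-6 RNAi and between 2.41 and 2.84 in the other 9 arrays.

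Cyp-29A4 and cyp-25A1 also differed between single arrays. Cyp-29A4 stood at 6.20 (gas-1), 3.58 (mev-1) and 5.203 (isp-1), against 2.89 in the K12 wild type, and at 6.38 in nuo-5 RNAi against 4.20 in the HT115 wild type, with the other RNAi arrays at 3.52 to 4.76. The K12 minus HT115 wild type difference was -1.31 for this gene. Cyp-25A1 was lower in gas-1 and mev-1 (4.81 and 4.82, against 5.76) and higher in isp-1 (6.79), and among the RNAi arrays it ran from 4.88 in nduf-6 to 7.32 in nuo-5, on both sides of the HT115 wild type (5.90). Its neighbour cyp-25A2 stood at 8.33 in gas-1 and 8.40 in nduf-6 RNAi, and between 9.05 and 9.48 in the other 8 arrays.

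**Figure D3:**
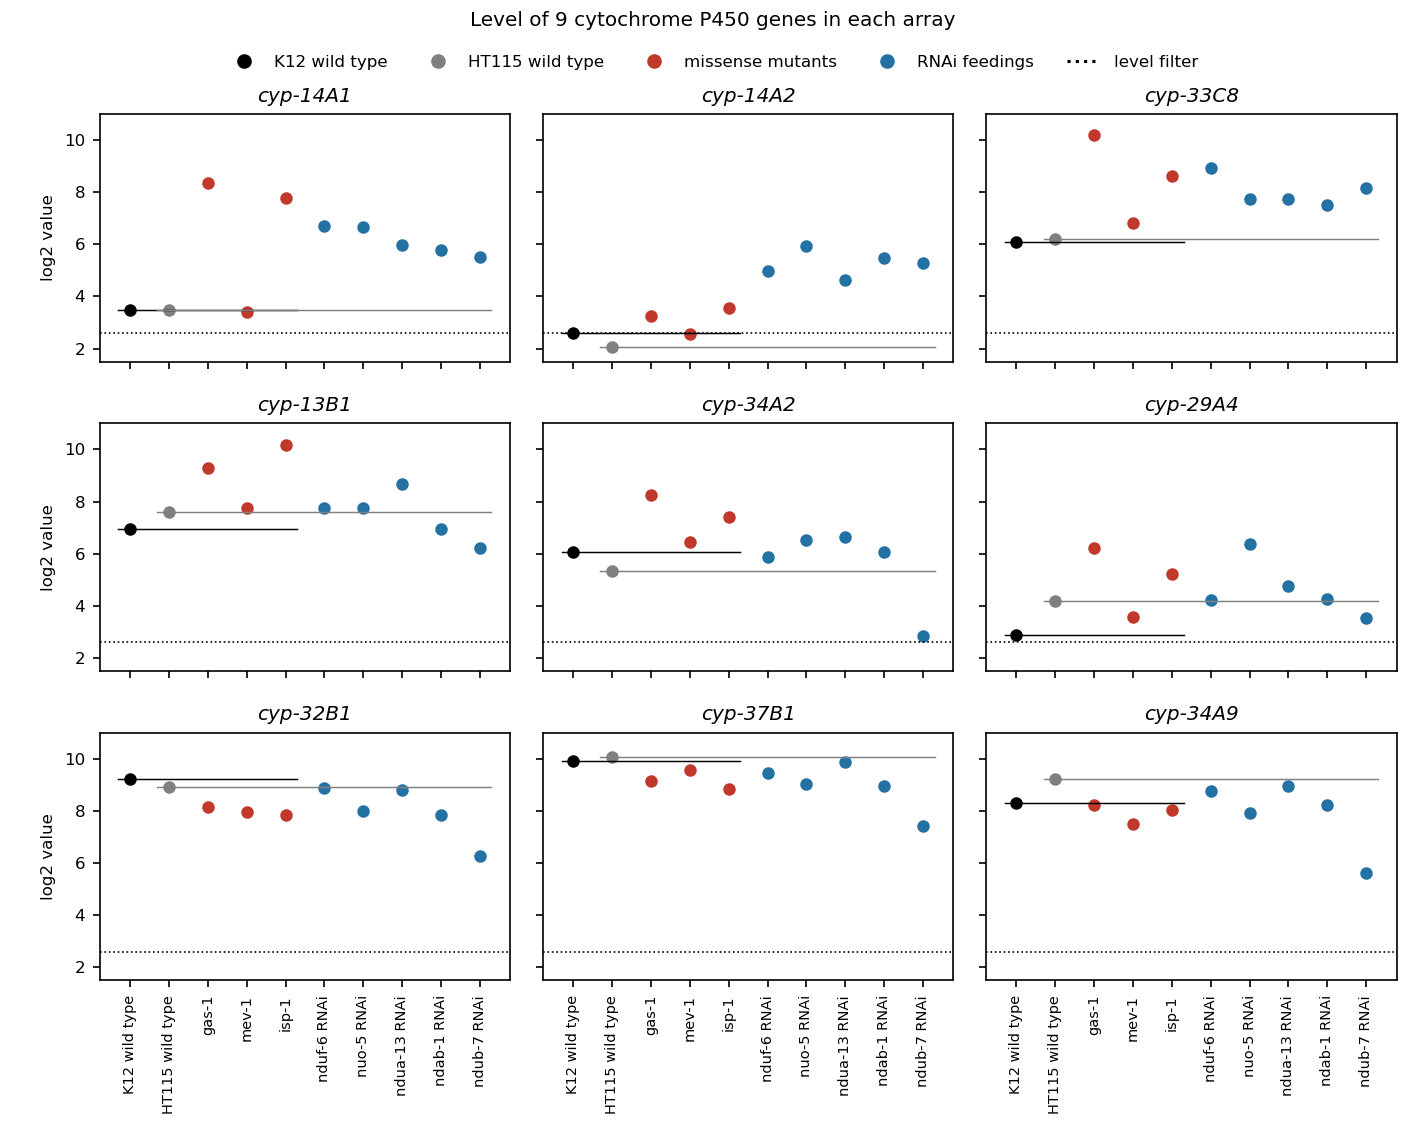
Level on the log2 scale (y axis) of 9 P450 genes in the 10 arrays (x axis), 1 point per array, with the level filter of 2.60 dotted. The K12 wild type's level is a black line over the wild types and missense mutants, and belongs to the missense mutants. The HT115 wild type's level is a grey line that runs over the missense mutants too, but belongs to the RNAi feedings. Cyp-14A1 is at the wild-type level in mev-1 (3.42) and above it in the other 7 mutants, and the lowest points of cyp-32B1, cyp-37B1 and cyp-34A9 are those of ndub-7 RNAi.

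The 35 families, the best known of the xenobiotic-induced P450s in the worm, did not move as a group. Cyp-35A2, a gene with a role in fat storage, was lower than its wild type in 8 of 8 mutants. It stood at 7.44 in the K12 wild type, with 6.62 (gas-1), 7.08 (mev-1) and 7.39 (isp-1). It stood at 7.70 in the HT115 wild type, with 6.76, 7.31, 7.06, 6.66 and 5.89 in the RNAi arrays, in the order given above. The isp-1 value lay close to its wild type, and the RNAi difference of -0.96 (SE 0.50, limma adjusted p = 0.686) did not pass. The other 4 measured 35A genes stayed under the filter, and so did cyp-35B3. Cyp-35D1, known to metabolise the anthelmintic thiabendazole, stood between 2.59 and 2.74 in all arrays.

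Cyp-35B1, another gene downstream of DAF-16 (also named dod-13), stood at 7.88 (gas-1), 5.73 (mev-1) and 7.34 (isp-1), against 6.57 in the K12 wild type. Its RNAi levels stood at 6.98 (nduf-6), 8.39 (nuo-5) and 8.18 (ndua-13), then 8.95 (ndab-1) and 7.05 (ndub-7), against 7.37 in the HT115 wild type. Both groups lay on both sides of their wild type. Its neighbour cyp-35B2 was higher in 8 of 8 mutants, at 4.19 in gas-1 against 2.31 in the K12 wild type and at 2.62 to 4.02 in the RNAi arrays against 2.49 in the HT115 wild type, both wild types being under the filter. Among the 73 genes cyp-35C1 had the highest ratio in mev-1, 6.97 3.40-fold above the K12 wild type, and it stood at 6.89 in nuo-5 RNAi and 4.47 in nduf-6 RNAi, against 5.85 in the HT115 wild type. Its second probe set gave log2 ratios of 1.88 in mev-1, 1.68 in nuo-5 RNAi and -0.20 in nduf-6 RNAi, so the probe sets differ for nduf-6 RNAi, where the first gave -1.38.

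Members known from lipids and signalling were also measured. Cyp-31A2 and cyp-31A3, which act in making the lipid layer of the eggshell, stood within 0.26 of the K12 wild type in the missense mutants. In the RNAi arrays cyp-31A2 stood at 9.32, 9.45, 8.73, 8.77 and 8.40 against 9.36 in the HT115 wild type, the lowest being ndub-7 RNAi, where 22 of 22 oocyte and eggshell markers were also lower. The part of these markers in this value was not tested. Cyp-33E2, which makes eicosanoids in the pharynx, was lower in 3 of 3 missense mutants (4.88, 5.07 and 5.48, against 5.85), and did not pass (difference -0.70, SE 0.37, limma adjusted p = 1.00). In each missense mutant 8 of 9 pharynx markers were lower as well, and their part in this was not tested. Cyp-29A3, a further eicosanoid producer, stood between 3.10 and 3.98 in all arrays.

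Cyp-36A1, which acts downstream of the hypoxia factor HIF-1 and its hydroxylase EGL-9, was higher than the wild type in 8 of 8 mutants. It stood at 7.15 (gas-1), 6.47 (mev-1) and 7.07 (isp-1), against 5.74 in the K12 wild type. After RNAi feeding it stood at 6.79, 6.80, 6.42, 6.34 and 6.49, against 6.23 in the HT115 wild type. The missense values did not overlap either wild type, with a difference of 1.16 (SE 0.35), and the RNAi values were closer to theirs, with 0.34 (SE 0.33). Neither passed (limma adjusted p = 1.00 and 0.964), and the difference between the responses, -0.82 (SE 0.48), did not pass either (adjusted p = 0.999). The K12 minus HT115 wild type difference was -0.49. Cyp-44A1, of the mitochondrial type of P450s, had log2 ratios of 0.11 to 0.40 in the 3 missense mutants and of -0.96 to -0.06 in the 5 RNAi arrays, and neither difference passed.

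A few members were lower across the mutants. Cyp-37A1 was lower in 8 of 8 arrays, at 7.88, 7.64 and 7.78 in gas-1, mev-1 and isp-1 against 8.58 in the K12 wild type, and at 8.48, 8.27, 8.39, 8.02 and 8.41 in the RNAi arrays against 8.67 in the HT115 wild type. The missense values did not overlap any other array, and the difference over 8 mutants, -0.58 (SE 0.17), did not pass (limma adjusted p = 0.577). Cyp-32B1 stood at 8.15, 7.97 and 7.86 in the missense mutants against 9.22, and in the RNAi arrays at 8.89, 8.01, 8.82, 7.86 and 6.26 against 8.91. It was 1 of 2 P450 genes at least 2-fold lower in 3 of 3 missense mutants, with cyp-13A1, against 0.374% of all genes. Cyp-37B1 was lower in 8 of 8, from 9.14, 9.58 and 8.86 in the missense mutants against 9.92 to 7.43 in ndub-7 RNAi against 10.1 in the HT115 wild type. Cyp-33A1 went the other way in ndub-7 RNAi, at 10.4 against 8.76, while it was lower than the K12 wild type (9.28) in 3 of 3 missense mutants (8.58, 8.60 and 8.38). Cyp-42A1 stood at 4.60 in nuo-5 RNAi against 6.30, but its second probe set gave a log2 ratio of 0.03 there, so that value is uncertain.

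Tested as groups, 51 P450 genes entered the limma fits over 12641 genes, which share the spread between mutants of a kind because each wild type was a single array. In the missense mutants 1 P450 gene, cyp-13A1, passed an adjusted p of 0.05, against 0.0316% of all genes, and 5 (1 higher, 4 lower) had an unadjusted p under 0.05, against 3.05%. In the RNAi arrays 1, cyp-14A2, passed, against 0.396%, and 3 (1 higher, 2 lower) had an unadjusted p under 0.05, against 8.2%. Over all 8 mutants 0 passed, against 0.0158%, where 9 P450 genes had an unadjusted p under 0.05 (5 higher, 4 lower) and 6.91% of all genes did. For the difference between the RNAi and missense responses 0 passed, against 0.0475%, where 4 P450 genes had an unadjusted p under 0.05 and 4.23% of all genes did. The median difference of the 51 genes was 0.04 in the missense mutants, -0.04 in the RNAi arrays and 0.04 over all 8, beside 0.01, 0.00033 and 0.0021 for all genes tested. The p-values set a difference against the spread between unlike mutants, not between replicates of 1 strain.

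By direction alone, 7 of the 73 genes were higher than their wild type in 8 of 8 mutants, against 4.78% of all genes, and 9 were lower in 8 of 8, against 6.02%. The former were cyp-13A2, cyp-14A4, cyp-31A1, cyp-33C6, cyp-33C8, cyp-35B2 and cyp-36A1, and for cyp-33C6 the values spanned 0.06. The latter were cyp-23A1, cyp-32B1, cyp-33C5, cyp-33C11, cyp-33D1, cyp-34A9, cyp-35A2, cyp-37A1 and cyp-37B1, of which cyp-33C11 and cyp-33D1 never reached the filter. At least 2-fold in 5 of 5 RNAi arrays were 3 genes on the higher side (cyp-14A1, cyp-14A2 and cyp-33C8, against 0.497% of all genes) and 1 on the lower side (cyp-14A5, against 0.637%). At least 2-fold in 3 of 3 missense mutants were 0 genes on the higher side, against 0.415% of all genes, and in 8 of 8 mutants 0 genes on the higher and 0 on the lower side, against 0.0234% and 0.0467%. Of any size, 21 genes were higher in 3 of 3 missense mutants (23.6% of all genes) and 17 lower (24.3%), and 15 were higher in 5 of 5 RNAi arrays (17.5%) and 16 lower (17.1%). The arrays of a culture share 1 wild type, so such agreement is not replication.

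**Figure D4:**
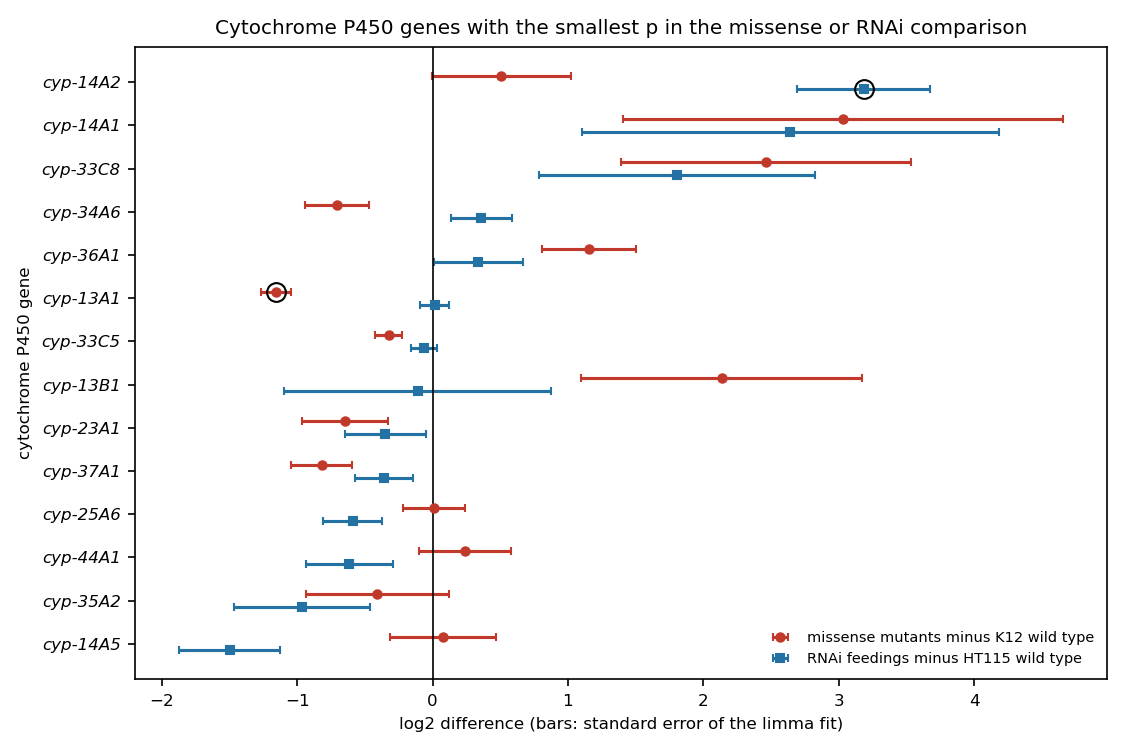
Log2 difference (x axis, bars are the standard error of the limma fit) of 14 P450 genes (y axis) in the 3 missense mutants against the K12 wild type (red circles) and in the 5 RNAi feedings against the HT115 wild type (blue squares), for the genes among the 8 smallest p-values of either comparison. Black rings mark the 2 calls, cyp-14A2 in the RNAi arrays (3.18) and cyp-13A1 in the missense mutants (-1.15), and the bars of cyp-14A1 are among the widest.

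The partners and regulators of the P450s were examined in lists taken from textbook knowledge, and 0 members of any list passed in any of the 4 limma comparisons. The reductase gene emb-8 was higher than its wild type in 8 of 8 mutants, by 0.05 in nuo-5 RNAi to 0.56 in ndub-7 RNAi (log2). Emb-8 stood at 9.51 in the HT115 and 9.77 in the K12 wild type, and the RNAi arrays (9.57 to 10.07) lay on both sides of the latter. Of the 6 genes of electron transfer, the median ratio lay between 0.01 and 0.31 over the 8 arrays. Daf-9 had a mean under the filter and stood out in mev-1, where its ratio was 2.78, and in ndub-7 RNAi (1.51), with ratios of at most 0.05 elsewhere. The nuclear receptor gene daf-12, whose product binds the hormone that DAF-9 makes, had ratios of 0.69 to 2.28 in the RNAi arrays and of -0.14 to 0.56 in the missense mutants. Its level was 7.41 in the HT115 and 8.91 in the K12 wild type, and the RNAi arrays (8.10 to 9.69) lay on both sides of the latter, so the RNAi ratios rest on the HT115 wild type. Among the 25 receptors and other regulators the median ratio lay between -0.16 and 0.24. The ratio of skn-1, which encodes a factor of the detoxification response, ran from -0.07 (mev-1) to 0.59 (gas-1) in the missense mutants and from 0.33 to 0.95 in the RNAi arrays. Skn-1 stood at 8.90 in the HT115 and 9.73 in the K12 wild type. The RNAi arrays (9.23 to 9.85) lay on both sides of the latter, so these RNAi ratios also rest on the HT115 wild type. Of the 5 flavin monooxygenases, the other oxygenases of foreign compounds, fmo-1 was lower in 8 of 8 mutants (-1.10 to -0.28), and fmo-2 ran from 1.73 in gas-1 and -1.58 in mev-1 to -2.22 in ndab-1 RNAi. The 6 genes that make or break down the substrates and products of eicosanoid synthesis had median ratios between -0.38 and 0.25.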

How the data were processed

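The authors deposited 1 table of log2 values for 22625 probe sets on 10 arrays, which span 1.43 to 16.0. Their summarisation and normalization are not given in the sources used here. After removal of 77 control probe sets, values were quantile normalised, since array medians differed by 0.128, over the limit of 0.1. Of these, 887 carried several symbols (2 of them of P450 pairs) and 895 none, and neither were used. Arrays were grouped from their titles. The tests used limma 3.58.1 under R 4.3.3 (lmFit, eBayes with a trend, Benjamini-Hochberg over 12641 genes, two-sided, threshold 0.05), checked on simulated data. A simulated log2 change of 1 passed in 21.2% of genes for the missense, 20.8% for the RNAi and 44.6% for the 8-mutant comparison. For the response difference it passed in 4.8%. A change of 2 passed in 53.6%, 60.8%, 82.2% and 34.6%. A gene that did not pass may therefore still differ. The missense, RNAi and response comparisons came from a fit with 4 groups (6 residual degrees of freedom), the comparison of 8 mutants from a fit with terms for culture and mutant (7). A lone wild type is assumed to vary like the mutants. Arrays carry no replicate within a strain, so their number limits the precision.

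The members and lists were chosen with earlier results of these data known. Named genes followed a rule: genes that passed, the 8 smallest p-values of a comparison, in each array the 3 highest and 3 lowest ratios where either value exceeded 5.96, the overall median, the 5 highest and 3 lowest levels, the 5 widest ranges, genes at least 2-fold from wild type in all arrays of a group, those next to the filter and the highest of a subfamily with 3 or more genes. By the rule cyp-25A6 also belongs here, lower in 5 of 5 RNAi arrays (-0.59, SE 0.22, limma adjusted p = 0.499). Its K12 wild type (5.05) lay inside the RNAi range (4.84 to 5.23), below the HT115 wild type (5.67). So do cyp-31A5 (mean level 8.87), cyp-23A1 and cyp-31A1. The last 2 differed over the 8 mutants by -0.49 (SE 0.21) and 0.46 (SE 0.18) and did not pass. Any other gene was named after its values were seen. Marker lists were intestine, sperm, oocyte and eggshell, moulting, yolk (5 genes, median ratios of -0.54 to 0.05), pharynx and dauer-related genes (7 genes, 0.12 to 1.38).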

Additional observations from a re-analysis of the deposited data

Results flagged for a closer look

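Of 53 P450 genes that were named by rule or spanned at least 2-fold over the 10 arrays, 8 had an RNAi array far from the other 4 by Dixon's criterion on 5 values. In unselected groups chance gives about 1 in 20, but these genes were chosen partly for wide ranges over the same arrays, so that rate does not apply to them and the 8 are a description. In nduf-6 RNAi cyp-34A10 stood at 5.56 (the others at 2.41 to 2.84), cyp-33E3 at 3.35 (2.49 to 2.54) and cyp-13A8 at 2.33 (1.88 to 1.91). In nuo-5 RNAi cyp-14A4 stood at 3.15 (2.10 to 2.20) and cyp-33C9 at 7.05 (6.52 to 6.65). In ndua-13 RNAi cyp-33B1 stood at 3.23 (2.17 to 2.29) and cyp-13A10 at 3.97 (3.23 to 3.28). In ndub-7 RNAi cyp-34A2 stood at 2.83, below the others (5.87 to 6.64). Apart from cyp-33C9, cyp-34A2 and cyp-13A10, at least 3 of the other 4 RNAi values of each gene lay under the filter of 2.60.

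Among the same 53 genes, for 3 every missense mutant lay on one side of its wild type and every RNAi array on the other. The share of all genes with such signs was not counted, so the 3 are a description too. Cyp-29A2 was higher in the missense mutants by a mean of 0.51 and lower in the RNAi arrays (-0.36), and cyp-44A1 by 0.24 and -0.62. Cyp-34A6 was lower in the missense mutants (-0.71) and higher in the RNAi arrays (0.36), and here the K12 wild type lay 1.32 above the HT115 wild type. The tests of these differences between responses did not pass (limma adjusted p of 0.885 to 0.999). The K12 minus HT115 wild type difference was -0.89 for cyp-29A2 and -0.74 for cyp-44A1. Of the genes not screened, cyp-34A3 and cyp-34A7 had the same pattern of signs, at levels under the filter in all 10 arrays.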

How the results depend on the processing

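The calls of single P450 genes were not stable. In the missense mutants the count of 1 (cyp-13A1) went to 0 with deposited values centred on the median, without a trend and with the groups compared alone. It was 0 to 1 when an array was left out (0 without isp-1 or without nuo-5, ndua-13 or ndab-1 RNAi). With the filter at the 50th percentile it was 0 as well, but there cyp-13A1 (mean 2.93) was filtered out and not tested. In the RNAi arrays the count of 1 (cyp-14A2) went to 0 centred on the median, without a trend, with the groups compared alone and with robust moderation. It was 0 to 1 when an array was left out, with 1 only without ndua-13 RNAi. At the 50th percentile cyp-14A2 (mean 4.03) was likewise filtered out and not tested, so the count of 0 there was fixed beforehand. Over the 8 mutants the count of 0 became 1 without the K12 wild type (cyp-14A2) and 1 without the HT115 wild type (cyp-13A1, whose difference was -1.15 there and 0.016, with the sign turned, without the K12 wild type). For the response difference it became 1 (cyp-13A1) without a level filter and ran from 0 to 1 when an array was left out. Of 496 values of named genes under other settings, 473 kept direction and side of the threshold.

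Counts of all genes past the threshold moved as well. In the missense mutants 4 became 2 (centred on the median), 98 (no filter), 1 (50th percentile), 0 (groups alone) and 1 to 10 with an array left out. In the RNAi arrays 50 became 305 (no filter), 0 (50th percentile), 14 (groups alone) and 33 to 69. Over the 8 mutants 2 became 4 (as deposited), 0 (centred, 50th percentile, mean of probe sets or no trend), 12 (no filter) and 0 to 50. For the response difference 6 became 251 (no filter), 1 (50th percentile), 3 (no trend) and 4 to 9.

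At 1.5-fold in place of 2-fold, 22 P450 genes were higher for gas-1, 6 for mev-1 and 10 for nduf-6 RNAi, and 12 were lower for gas-1, 15 for mev-1, 9 for isp-1, 8 in nduf-6, 7 in ndua-13, 14 in ndab-1 and 18 in ndub-7 RNAi. In values as deposited 5 were at least 2-fold lower in gas-1 and 3 in nuo-5 RNAi. The shares of all genes were not counted under these settings, so whether these P450 counts exceed them cannot be told. No paired analysis was possible because each array is a different strain or feeding. Levels near 2.60 and a single array per wild type limit what the data can show.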
